A study of Mus musculus with 10 samples.

Results

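The genes described here encode the non-collagen backbone of basement membranes: the laminin chains Lama2, Lama4, Lama5, Lamb1, Lamb2, Lamb3 and Lamc1, the nidogens Nid1 and Nid2, and perlecan (Hspg2). They were taken by name from a table of read counts, and all 10 were found among its 21877 gene symbols. RNA was sequenced from the peritoneum of male C57BL/6 mice of the genotype Mr1-/- or Mr1+/+. Mr1 encodes the antigen-presenting molecule recognised by mucosal-associated invariant T cells. Over 6 weeks the mice were injected into the peritoneal cavity with 4.25% peritoneal dialysis (PD) fluid or with an equal volume of PBS. The 4 groups held 2 libraries of Mr1-/- PD fluid, 2 of Mr1-/- PBS, 3 of Mr1+/+ PD fluid and 3 of Mr1+/+ PBS. The labels used here do not state the age of the mice, the kind of Mr1-/- allele or how many animals stand behind a library, and p-values therefore rest on a spread between samples that may be technical.

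A basement membrane is a thin sheet of matrix that lies under epithelium and mesothelium and surrounds fat cells, muscle fibres, capillaries and peripheral nerve. Each laminin is a trimer of an alpha, a beta and a gamma chain, and trimers with full-length arms polymerise on the cell surface, where laminins bind integrins and dystroglycan. Nidogens link the gamma chain of laminin to the collagen IV network, and perlecan, a large heparan sulfate proteoglycan, binds laminin, nidogen and growth factors. In the peritoneum such sheets underlie the mesothelium and wrap the capillaries and fat cells of the tissue beneath it.

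The libraries held 14145635 to 16335799 counts. Within groups, a chi-square over genes gave 1.74 per gene between Mr1-/- PD fluid replicates 1 and 2 and 2.23 between Mr1+/+ PBS replicates 1 and 2, but 18.6 to 118 between all other libraries of the same group. Each near-identical pair was summed and counted as 1 sample, which left 1 sample of Mr1-/- PD fluid, 2 of Mr1-/- PBS, 3 of Mr1+/+ PD fluid and 2 of Mr1+/+ PBS. Mr1 itself had 29 to 39 counts in Mr1-/- libraries, against 324 to 524 counts in Mr1+/+ libraries. Mr1+/+ PBS replicate 3 stood apart: 12 intestinal epithelial markers summed to 2512 CPM (counts per 1000000 counts of a library) there, against 24.4 to 35.9 CPM in the other 7 samples. Mr1-/- PBS replicate 2 stood apart in pericyte and smooth muscle markers, with 7152 CPM in sum, against 1718 to 2852 CPM in the other 7 samples. Mesothelial markers were present in every sample, with Msln, encoding mesothelin, at 8.39 to 51.9 CPM. The member genes had 114 counts (Lamb3 in its lowest library) or more in every library, and all 10 passed the filter on low counts, so 10 of the 15385 genes tested were members.

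PD fluid against PBS in Mr1+/+ mice gave higher levels of 5 of the 10 genes and a lower level of 1. Lamb1, Lama4, Nid1, Lamb2 and Lamc1 rose by 1.89-fold to 2.83-fold, and Lamb3 fell to 0.266 of its PBS level. These 5 higher and 1 lower were called at a Benjamini-Hochberg adjusted p under 0.05 over all tested genes (edgeR quasi-likelihood test). Among all tested genes, 8.49% were called higher and 6.37% lower in this comparison. The median log2 fold change of the members was 1.03, and that of all tested genes was -0.06. In bulk tissue, more cells of a type and more RNA per cell cannot be told apart. The 6 calls depended on single libraries: without Mr1+/+ PD fluid replicate 3 no member was called, and without Mr1+/+ PD fluid replicate 2 only Lamb2 was. Without replicate 2, 1.64% of all tested genes were called higher and 0.566% lower. Without both near-identical Mr1+/+ PBS libraries, Lamb2 was called higher and Lamb3 lower. Without Mr1+/+ PBS replicate 3, 5 members were again called higher and 1 lower. DESeq2 called 7 members higher and 1 lower, adding Lama2 (adjusted p = 0.00307) and Nid2 (adjusted p = 0.00413), and it called 12.2% of all tested genes higher and 12.4% lower. No gene of the whole table was called without Mr1+/+ PD fluid replicate 3 (edgeR), although 3601 had an unadjusted p under 0.05.

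Among the beta chains, partners of the alpha and gamma chains in every trimer, Lamb1 had the largest rise of the family. Lamb1 had 252, 453 and 406 CPM (library sizes scaled by TMM) in Mr1+/+ PD fluid, against 120.5 and 141 CPM in Mr1+/+ PBS. All 3 PD fluid samples lay above both PBS samples, with PD fluid replicate 1 the lowest of them. Its log2 fold change was 1.50 with a standard error (SE) of 0.28 (edgeR adjusted p = 0.0186). Lamb2, the beta chain of vascular and neuromuscular basement membranes, had 222, 286 and 253 CPM in Mr1+/+ PD fluid, against 117 and 137 CPM in Mr1+/+ PBS. The groups did not overlap. The log2 fold change of Lamb2 was 0.99 (SE 0.16, edgeR adjusted p = 0.0129). Lamb3, the beta chain of the epithelial laminin that anchors hemidesmosomes, went the other way, with 8.06, 8.32 and 7.39 CPM in Mr1+/+ PD fluid, against 18.4 and 41.4 CPM in Mr1+/+ PBS. The 41.4 CPM belonged to Mr1+/+ PBS replicate 3, the library with intestinal epithelial markers. Squamous epithelial markers moved with Lamb3 in sum, but 3 of the 5 tested had positive log2 fold changes. Their values are given with the other laminin chains. Lamb3 fell by 1.91 on the log2 scale (SE 0.32, edgeR adjusted p = 0.0141). Without that library the log2 fold change was -1.21 (adjusted p = 0.0151), and without the other Mr1+/+ PBS sample it was -2.37.

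The alpha chains, which carry the domains that bind cell receptors, gave unlike results, and 1 of 3 was called. Lama4, found in endothelial and fat cell basement membranes, had 203.5, 361 and 273.5 CPM in Mr1+/+ PD fluid, against 115.5 and 133 CPM in Mr1+/+ PBS. It rose by a log2 fold change of 1.17 (SE 0.26, edgeR adjusted p = 0.0277). Lama2, the alpha chain of muscle and Schwann cell basement membranes, had 57.9, 81.8 and 61.1 CPM in Mr1+/+ PD fluid, against 26.3 and 36.5 CPM in Mr1+/+ PBS. All PD fluid samples were above all PBS samples, and the log2 fold change was 1.10 (SE 0.31) with an edgeR adjusted p of 0.0539, short of the threshold that it passed with DESeq2. Lama5, an alpha chain of many epithelial and mature vascular basement membranes, had 96.5, 157 and 99.5 CPM in Mr1+/+ PD fluid, against 109 and 114 CPM in Mr1+/+ PBS. Its groups overlapped, since PD fluid replicates 1 and 3 lay below both PBS samples and replicate 2 above them. The log2 fold change of Lama5 was 0.08 (SE 0.22, edgeR adjusted p = 0.831).

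Lamc1 encodes the gamma chain shared by most laminins and holds the nidogen binding site. It had 350.5, 545 and 384 CPM in Mr1+/+ PD fluid, against 218 and 234.5 CPM in Mr1+/+ PBS, a log2 fold change of 0.91 (SE 0.21, edgeR adjusted p = 0.0273). Nid1, the main nidogen, had 400.3, 661.5 and 489 CPM in Mr1+/+ PD fluid, against 207 and 263 CPM in Mr1+/+ PBS. It rose by a log2 fold change of 1.14 (SE 0.26, edgeR adjusted p = 0.0277), and the groups of neither gene overlapped. Nid2, the second nidogen, had 64.6, 68.4 and 45.5 CPM in Mr1+/+ PD fluid, against 26.1 and 30.8 CPM in Mr1+/+ PBS. Its log2 fold change of 1.07 (SE 0.31) had an edgeR adjusted p of 0.0538 and was not called, but DESeq2 called it. Hspg2 had 489, 824 and 486 CPM in Mr1+/+ PD fluid, against 385 and 425 CPM in Mr1+/+ PBS. PD fluid replicate 2 was far above the others, and the log2 fold change of 0.57 (SE 0.25) was not called (edgeR adjusted p = 0.156). In 8 of the 10 members every Mr1+/+ PD fluid sample was above every Mr1+/+ PBS sample, and in 1, Lamb3, every sample was below. Over all tested genes these shares were 25% and 25.6%.

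**Figure D1:**
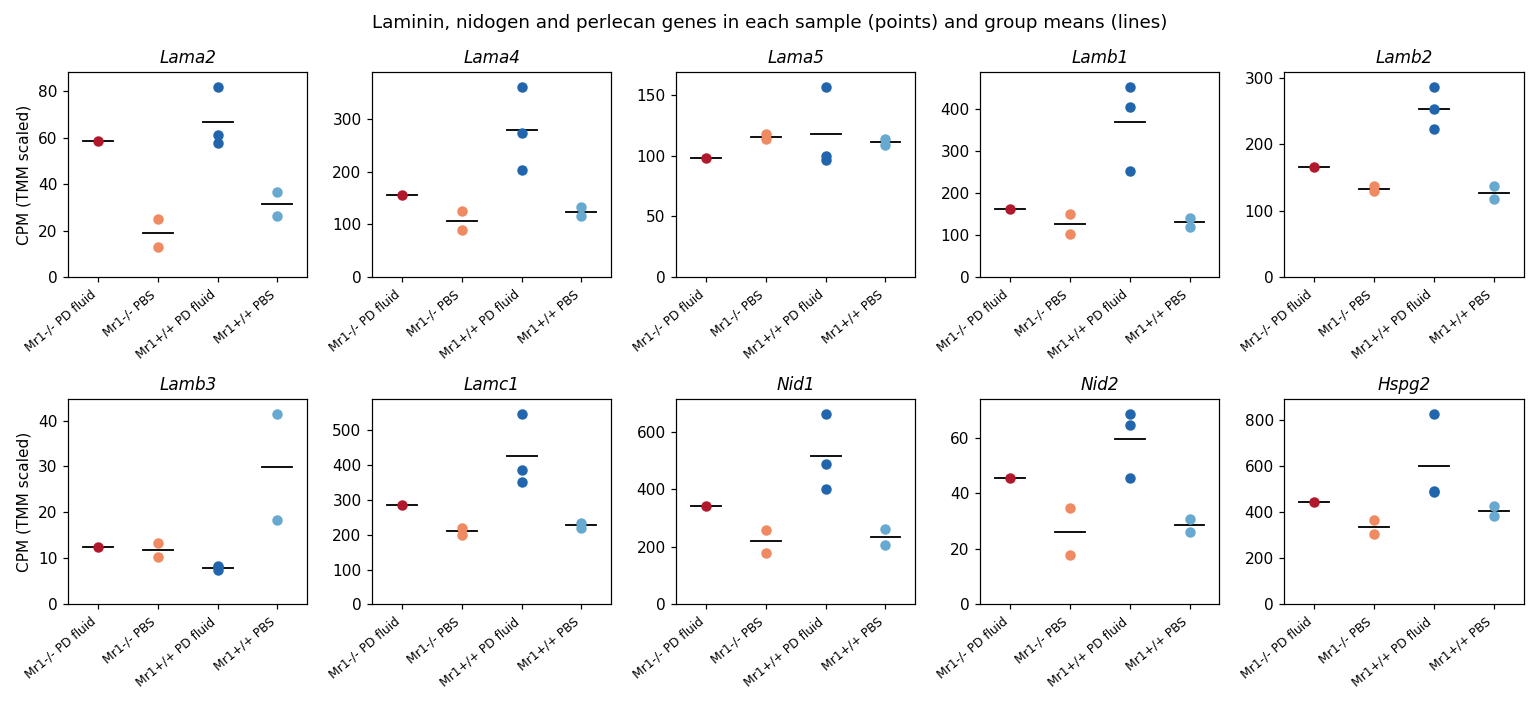
Level of each member gene in every sample, in TMM-scaled CPM on linear axes that start at 0, by group (points are samples, short lines are group means, and the axes differ between genes). Lamb1 lay at 252 to 453 CPM in the 3 Mr1+/+ PD fluid samples and at 104 to 162 CPM in the other 5 samples, and Lamb3 was highest in Mr1+/+ PBS.

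The stretches around the transcription starts of 5 members are shown for genes whose results differ: Lamb1, Nid1 and Lamb2 rose in Mr1+/+ PD fluid, Lama5 was not called, and Lamb3 fell. They come from RefSeq on GRCm38.p6 (mm10) and run 250 bases before to 50 bases after the start, written 5′ to 3′ along the gene. Of the members, 7 were matched in that table, with 8 entries. Capitals mark the GC box (GGGCGG) and the CCAAT box (CCAAT), each searched on both strands. The Lamb1 stretch is chr12:31265043-31265342 (plus strand), that of Nid1 chr13:13437352-13437651 (plus strand), that of Lamb2 chr9:108479612-108479911 (plus strand), that of Lama5 chr2:180225810-180226109 (minus strand) and that of the first Lamb3 entry chr1:193301744-193302043 (plus strand).
Lamb1: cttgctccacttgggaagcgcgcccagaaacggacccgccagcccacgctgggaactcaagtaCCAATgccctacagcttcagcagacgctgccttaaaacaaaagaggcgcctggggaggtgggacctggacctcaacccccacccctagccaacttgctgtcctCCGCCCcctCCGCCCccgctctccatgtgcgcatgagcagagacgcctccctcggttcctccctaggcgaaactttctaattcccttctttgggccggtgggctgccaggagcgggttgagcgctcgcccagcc
Nid1: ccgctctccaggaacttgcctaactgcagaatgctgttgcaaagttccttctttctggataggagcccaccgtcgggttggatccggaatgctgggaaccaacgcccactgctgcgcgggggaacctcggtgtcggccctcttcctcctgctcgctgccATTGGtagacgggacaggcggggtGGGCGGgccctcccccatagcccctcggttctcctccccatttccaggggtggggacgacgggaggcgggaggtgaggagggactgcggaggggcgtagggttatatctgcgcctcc
Lamb2: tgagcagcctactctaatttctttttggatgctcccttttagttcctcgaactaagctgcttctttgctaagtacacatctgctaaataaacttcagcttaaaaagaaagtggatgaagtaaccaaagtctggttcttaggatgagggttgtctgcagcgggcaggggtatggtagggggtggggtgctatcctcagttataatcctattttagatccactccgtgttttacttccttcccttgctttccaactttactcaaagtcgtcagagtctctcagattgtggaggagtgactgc
Lama5: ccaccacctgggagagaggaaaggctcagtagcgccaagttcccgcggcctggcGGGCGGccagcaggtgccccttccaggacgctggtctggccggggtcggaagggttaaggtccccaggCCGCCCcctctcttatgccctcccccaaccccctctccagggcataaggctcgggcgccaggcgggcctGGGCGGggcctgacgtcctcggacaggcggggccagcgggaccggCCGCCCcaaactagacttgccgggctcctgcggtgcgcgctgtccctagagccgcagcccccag
Lamb3: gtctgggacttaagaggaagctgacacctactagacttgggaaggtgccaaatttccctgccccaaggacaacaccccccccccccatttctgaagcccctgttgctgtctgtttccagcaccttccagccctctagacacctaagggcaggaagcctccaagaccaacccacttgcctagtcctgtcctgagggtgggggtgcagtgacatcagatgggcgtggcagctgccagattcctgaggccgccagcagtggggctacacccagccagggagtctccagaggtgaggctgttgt
Lamb1 had 2 GC boxes and 1 CCAAT box, and Nid1 had 1 of each. Lama5 had 4 GC boxes and no CCAAT box, while Lamb2 and both Lamb3 entries held neither motif. Hspg2 (5 GC boxes) and Lama2 (1 GC box) were searched too and are not printed. Of 32851 RefSeq promoters of the same length, 35.7% held a GC box and 37.4% a CCAAT box. An AP-1 site (TGANTCA, present in 7.81% of promoters) and a TATA box (TATAAA, in 13.6%) were found in none of the 8 member entries. No match overlaps another in the printed stretches, and a match describes letters in the window only.

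In the Mr1-/- genotype, PD fluid against PBS called no member, and none of the 15385 genes tested (0% called, edgeR). Unadjusted, 231 genes had a p under 0.05 here, and DESeq2 called 3 genes, none of them a member. With 1 sample of Mr1-/- PD fluid, the spread in that group is assumed to match that of the others. The fitted directions were nonetheless mostly upward: 8 of 10 members were above both PBS samples in the PD fluid sample and 1 was below, against 28.7% and 27.9% of all tested genes. Their median log2 fold change was 0.42, beside -0.01 for all tested genes. Without Mr1-/- PBS replicate 2, the sample high in smooth muscle markers, the member median was 0.30 and no member was called.

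Lama2 had 58.5 CPM in Mr1-/- PD fluid, against 25.2 and 12.9 CPM in Mr1-/- PBS. Its log2 fold change was 1.62 (SE 0.39, edgeR adjusted p = 1), and 1.21 without Mr1-/- PBS replicate 2. It was the only member with an unadjusted p under 0.05 (edgeR, 0.00379), a level that 1.2% of all tested genes reached in the same direction. The PD fluid value lay within the range of the Mr1+/+ PD fluid samples. Nid2 had 45.5 CPM in Mr1-/- PD fluid, against 34.6 and 17.7 CPM in Mr1-/- PBS, and Nid1 had 341 CPM against 258 and 180.3 CPM. Their log2 fold changes were 0.80 (SE 0.39) and 0.64 (SE 0.33), and both were 0.40 without Mr1-/- PBS replicate 2. Lama4 had 156 CPM in Mr1-/- PD fluid, against 126 and 88.8 CPM in Mr1-/- PBS. Lamc1 had 284 CPM against 220 and 200.5 CPM, and Hspg2 had 443 CPM against 364 and 304 CPM, in the same groups. These 3 genes had log2 fold changes of 0.54 (SE 0.34), 0.43 (SE 0.27) and 0.41 (SE 0.33).

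The beta chains and Lama5 had the smallest fitted changes in Mr1-/- mice. Lamb1 had 162 CPM in Mr1-/- PD fluid, against 150.4 and 104 CPM in Mr1-/- PBS, a log2 fold change of 0.35 (SE 0.36), and 0.11 without Mr1-/- PBS replicate 2. Lamb2 had 165 CPM against 137 and 129.7 CPM (log2 fold change 0.31, SE 0.21). Lamb3, with 12.5 CPM in Mr1-/- PD fluid, lay between the 13.4 and 10.2 CPM of Mr1-/- PBS, and its log2 fold change was 0.08 (SE 0.43). Lama5 was the 1 member below both PBS samples, with 97.8 CPM in Mr1-/- PD fluid, against 114 and 118 CPM in Mr1-/- PBS (log2 fold change -0.24, SE 0.29). All of these had an edgeR adjusted p of 1.

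**Figure D2:**
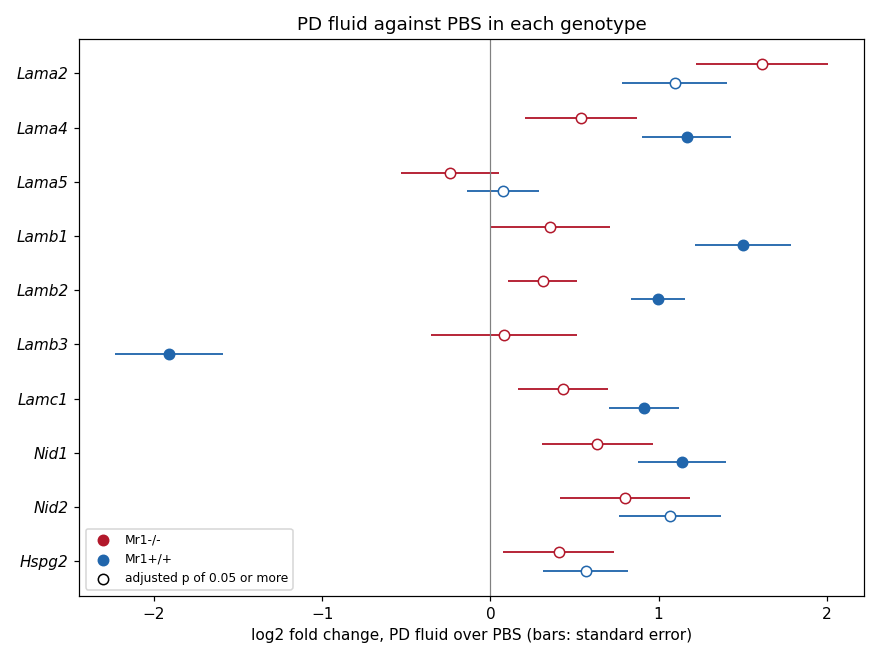
Fitted log2 fold change of PD fluid over PBS for each member, in Mr1-/- (red, upper of each pair) and Mr1+/+ (blue), with bars of 1 standard error and filled points where the adjusted p was under 0.05. The 6 filled points are all in Mr1+/+, with Lamb1 at 1.50 and Lamb3 at -1.91, and the Mr1-/- values lie between -0.24 and 1.62.

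Whether the PD fluid effect differed between the genotypes was tested as an interaction, the Mr1-/- effect minus the Mr1+/+ effect. No member was called, and no gene in the whole table (0%, edgeR), although 2037 genes had an unadjusted p under 0.05 and DESeq2 called 171 higher and 301 lower. Lamb3 had an interaction of 1.99 (SE 0.53, edgeR adjusted p = 0.272), Lamb1 of -1.15 (SE 0.46, adjusted p = 0.359) and Lamb2 of -0.68 (SE 0.26, adjusted p = 0.340), each with an unadjusted p under 0.05. In those directions 6.08% of all tested genes were higher and 7.16% lower at that level. DESeq2 called the Lamb3 interaction (1.99, adjusted p = 0.0394), as it did 1.11% of all tested genes in that direction. Without both near-identical Mr1+/+ PBS libraries the Lamb3 interaction was 2.46 (edgeR). That fit left replicate 3, the library with intestinal epithelial markers and the highest Lamb3 value, as the only Mr1+/+ PBS sample. Without Mr1+/+ PBS replicate 3 the Lamb3 interaction was 1.30. The median interaction of the members was -0.40, and that of all tested genes 0.01. Without Mr1-/- PBS replicate 2 the member median was -0.61, with Lamb3 at 1.81 and Lamb1 at -1.39.

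Under PD fluid, Mr1-/- against Mr1+/+ gave no member call, while 1 gene was called higher and 1 lower in the table (0.0065% each, edgeR). At an unadjusted p under 0.05 stood 3 members, all lower, and 8.85% of all tested genes were lower at that level. Lamb1 had 162 CPM in Mr1-/- PD fluid, against 252 to 453 CPM in Mr1+/+ PD fluid, a log2 fold change of -1.19 (SE 0.37, edgeR adjusted p = 0.171). Lama4 was at -0.84 (SE 0.34, adjusted p = 0.231) and Lamb2 at -0.62 (SE 0.20, adjusted p = 0.182). DESeq2 called Lamb1 and Lamb2 lower, and 3.85% of all tested genes lower. The Mr1-/- PD fluid sample was below all Mr1+/+ PD fluid samples in 7 members and above them in 1, Lamb3, against 33.9% and 36% of all tested genes. For Nid2 the Mr1-/- sample and Mr1+/+ PD fluid replicate 3 were both 45.5 CPM when rounded. The median was -0.51 for the members and 0 for all tested genes.

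Under PBS, Mr1-/- against Mr1+/+ called no member either (edgeR), and 0.0065% of genes were called in each direction. Lamb3 had 13.4 and 10.2 CPM in Mr1-/- PBS, against 18.4 and 41.4 CPM in Mr1+/+ PBS. Its log2 fold change was -1.33 (SE 0.36, unadjusted p = 0.00576, edgeR adjusted p = 0.566), and 3% of all tested genes were lower at an unadjusted p under 0.05. Without Mr1+/+ PBS replicate 3 the value was -0.64. With that library as the only Mr1+/+ PBS sample it was -1.81 and called (adjusted p = 0.00343), and 4.2% of all genes were then called lower. DESeq2 called 76 genes higher and 136 lower, none a member. In 3 members (Hspg2, Lama2 and Lamb3) both Mr1-/- samples were below both Mr1+/+ samples, against 18.1% of all tested genes. The median log2 fold change was -0.11 for the members, 0.02 without Mr1-/- PBS replicate 2, and -0.02 for all tested genes.

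Levels of different genes were set side by side as CPM per kilobase of merged exons. In median over the 8 samples Nid1 led with 43.5 CPM per kb, followed by Lamc1 with 31.3, Hspg2 with 30.4, Lamb2 with 24.9, Lamb1 with 15.8, Lama4 with 12.0, Lama5 with 9.79 and Nid2 with 7.73. Lama2 with 2.89 and Lamb3 with 1.72 CPM per kb were lowest. Every neighbouring pair in this order had overlapping ranges over the 8 samples, such as 26.0 to 95.3 for Nid1 and 24.2 to 65.9 for Lamc1. Within each sample Lamc1, the gamma chain, stood above every alpha chain member, whose highest values were 29.9 for Lama4, 13.8 for Lama5 and 5.01 for Lama2.

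Within the alpha chains, the balance of Lama4 and Lama5 differed between PD fluid and PBS samples. Lama5 made up 34.2% of the summed alpha chain level per kb in Mr1-/- PD fluid, against 45.5% and 55.9% in Mr1-/- PBS. In Mr1+/+ PD fluid it made up 29.4%, 28.3% and 24.9%, against 46.1% and 43.0% in Mr1+/+ PBS. Lama4 made up 51.5% in Mr1-/- PD fluid, against 47.5% and 39.8% in Mr1-/- PBS, and 58.4% to 64.5% in Mr1+/+ PD fluid, against 46.1% and 47.4% in Mr1+/+ PBS. In both genotypes the PD fluid samples had the higher Lama4 share and the lower Lama5 share, without overlap. Lama2 held 14.3% in Mr1-/- PD fluid, against 7.03% and 4.28% in Mr1-/- PBS, and 10.3% to 12.3% in Mr1+/+ PD fluid, against 7.75% and 9.59% in Mr1+/+ PBS. These shares restate the levels above and were not tested. They depend on the length used: with the longest transcript, Lama5 made up 21.2% in Mr1-/- PD fluid, against 29.9% and 39.2% in Mr1-/- PBS, and 14.5% to 17.6% in Mr1+/+ PD fluid, against 27.9% and 30.5% in Mr1+/+ PBS. Lama4 then exceeded Lama5 in every sample, while with merged exons Lama5 was the larger in some, such as Mr1-/- PBS replicate 2 (Lama5 at 55.9% and Lama4 at 39.8%). The PD fluid samples had the lower Lama5 share with either length.

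Within the beta chains, Lamb1 made up 36.0% in Mr1-/- PD fluid, against 38.2% and 31.4% in Mr1-/- PBS, where the samples overlapped. In Mr1+/+ PD fluid it made up 40.2%, 48.6% and 49.0%, against 35.5% and 33.0% in Mr1+/+ PBS. Lamb3 made up 4.17% in Mr1-/- PD fluid, against 5.11% and 4.64% in Mr1-/- PBS. It was 1.34% to 1.93% of the beta chain level in Mr1+/+ PD fluid, against 8.14% and 14.5% in Mr1+/+ PBS. Between the nidogens, Nid1 held 82.2% to 88.9% of the summed level in all 8 samples.

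**Figure D3:**
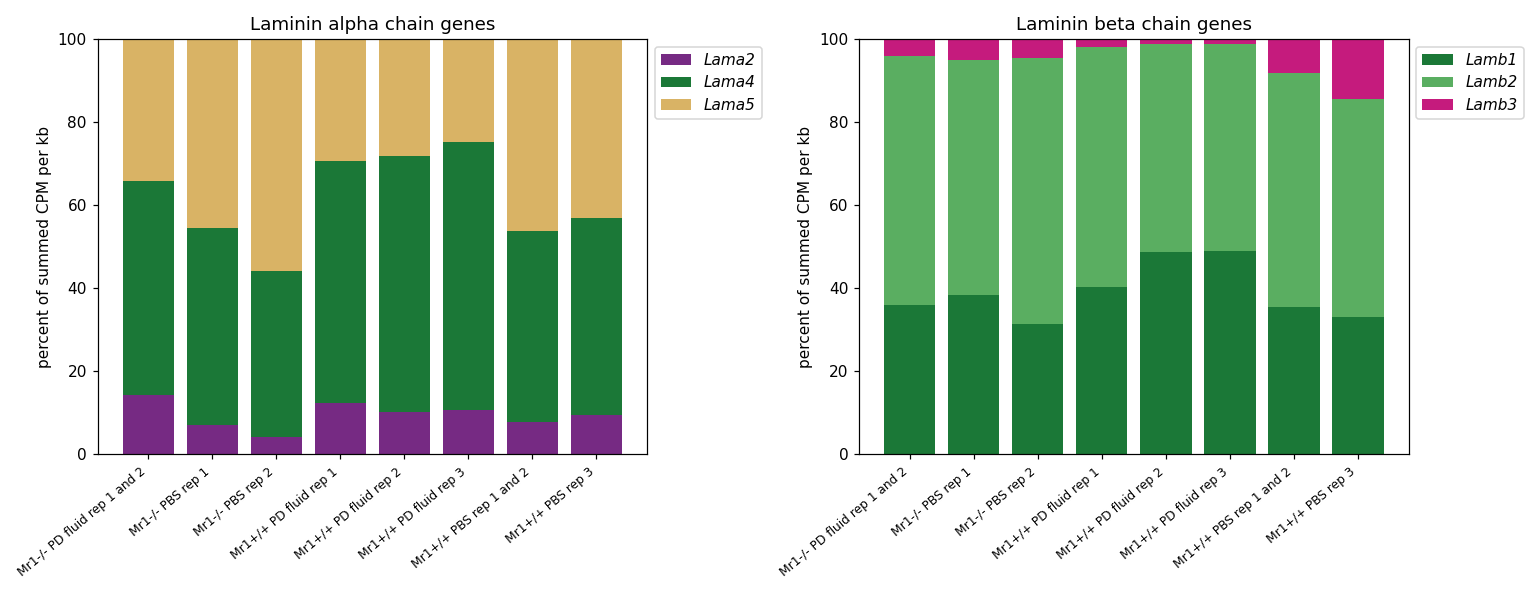
Share of each gene in the summed CPM per kb of the alpha chain members (left) and the beta chain members (right), 1 bar per sample. Lama5 takes 24.9% to 29.4% in the Mr1+/+ PD fluid bars and 43.0% to 46.1% in the Mr1+/+ PBS bars, and Lamb3 takes 14.5% in Mr1+/+ PBS replicate 3.

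Laminin chains outside the member list were read from Lama1, Lama3 and Lamc3, and edgeR called 0 of these 3 in Mr1+/+ mice, with 0 at an unadjusted p under 0.05 and 0 called by DESeq2. Lama3, the alpha chain of the epithelial laminin that holds Lamb3, was named after its values were seen. It had 9.30, 11.4 and 7.84 CPM in Mr1+/+ PD fluid, against 13.8 and 14.8 CPM in Mr1+/+ PBS (log2 fold change -0.59, SE 0.28, edgeR adjusted p = 0.173). All 3 PD fluid samples lay below both PBS samples, and the difference did not pass the test. Squamous epithelial markers summed to 50.95 CPM in Mr1-/- PD fluid, against 48.5 and 48.0 CPM in Mr1-/- PBS, and to 34.2 to 41.5 CPM in Mr1+/+ PD fluid, against 65.1 and 115.4 CPM in Mr1+/+ PBS. The sum was lowest in Mr1+/+ PD fluid and highest in Mr1+/+ PBS replicate 3, as for Lamb3. Its markers did not move together, and the median log2 fold change of those tested was 0.81 in Mr1+/+. Krt10 (1.14), Krt14 (0.81) and Trp63 (1.66) were up and Perp (-2.15) was down, none of them called. Perp had 47.9 CPM in Mr1+/+ PBS replicate 3. Of the 10 markers, 5 were tested and 1 was called lower in Mr1+/+, Sfn, an epithelial 14-3-3 protein named after its values were seen (log2 fold change -1.17, SE 0.15, edgeR adjusted p = 0.0124). The other 5 were too low to test, the keratin Krt14 was at 0.37 to 1.49 CPM, and Krt5 and Krt6a had 0 counts in every library. The part of such cells in the Lamb3 difference was not tested.

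The collagen partners were also higher in Mr1+/+ PD fluid. Of 8 basement membrane collagen and collagen-like chains, 7 were called higher and none lower (edgeR), beside 8.49% and 6.37% of all tested genes. All 8 had positive log2 fold changes, with a median of 1.28. Col4a1, a chain of the ubiquitous collagen IV trimer, had 894, 1583 and 1448 CPM in Mr1+/+ PD fluid, against 501 and 566 CPM in Mr1+/+ PBS (log2 fold change 1.29, SE 0.25, edgeR adjusted p = 0.0190). Col4a5 rose by 1.55 (SE 0.30, adjusted p = 0.0191), Col15a1 by 1.32 (SE 0.23, adjusted p = 0.0151) and Col4a6 by 1.30 (SE 0.33, adjusted p = 0.0366) on the log2 scale. In Mr1-/- mice none of the 8 was called, and their median was 0.50. This list had 0 calls without Mr1+/+ PD fluid replicate 2 or replicate 3 and 4 without both near-identical Mr1+/+ PBS libraries. Whether the collagens and the members differ from each other was not tested.

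Other parts of the system also held rises in Mr1+/+ PD fluid, and edgeR called no gene of these 4 lists lower. In the list counts, a gene that rose is one called higher (edgeR), as were 8.49% of all tested genes. Of 18 other basement membrane proteins 5 rose, led by Sparc, a collagen-binding matricellular protein, with 1364, 2368 and 2226 CPM in Mr1+/+ PD fluid, against 522 and 672 CPM in Mr1+/+ PBS. The log2 fold change of Sparc was 1.73 (SE 0.30, edgeR adjusted p = 0.0147), and that of Egflam, the dystroglycan ligand pikachurin, was 1.48 (SE 0.27, adjusted p = 0.0169). Of 18 genes listed as laminin and perlecan receptors, a list that also holds sarcoglycans of the dystrophin complex, 8 rose. Itga7, the alpha subunit of a laminin-binding integrin, had 106, 160.3 and 154 CPM in Mr1+/+ PD fluid, against 42.6 and 58.8 CPM in Mr1+/+ PBS (log2 fold change 1.47, SE 0.26, edgeR adjusted p = 0.0158). Sgcd, a sarcoglycan of the dystrophin complex, rose by 1.38 (SE 0.23, adjusted p = 0.0141).

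Among the assembly and crosslinking enzymes 9 of 16 tested rose, and B4gat1 had 0 counts. Serpinh1, the collagen chaperone HSP47, was at 1.60 (SE 0.29, edgeR adjusted p = 0.0178), and Pxdn, the peroxidase that crosslinks collagen IV, at 1.30 (SE 0.24, adjusted p = 0.0166) on the log2 scale. Of 19 turnover genes 9 rose, with Mmp9, a gelatinase, at 1.52 (SE 0.32, adjusted p = 0.0239). Timp1, a metalloproteinase inhibitor, had 3.16, 11.1 and 13.0 CPM in Mr1+/+ PD fluid, against 1.32 and 0.63 CPM in Mr1+/+ PBS, a log2 fold change of 3.17 (SE 0.73, adjusted p = 0.0305). Its PD fluid replicate 1 was well below the other 2 replicates. The median log2 fold changes of these lists were 0.71 for other proteins, 0.54 for receptors, 0.86 for enzymes and 0.87 for turnover genes, beside -0.06 for all tested genes. No gene of these lists, or of the lists of collagens and other laminin chains, was called in the other 4 comparisons. Without Mr1+/+ PD fluid replicate 3 no list gene was called. Without Mr1+/+ PD fluid replicate 2 the counts were 2, 3, 2 and 1 in the same order, beside 1.64% of all tested genes. Without both near-identical Mr1+/+ PBS libraries they were 4, 6, 5 and 3, and 1 receptor (Sdc1) and 2 turnover genes (Mmp7 and Mmp15) were then called lower.

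**Figure D4:**
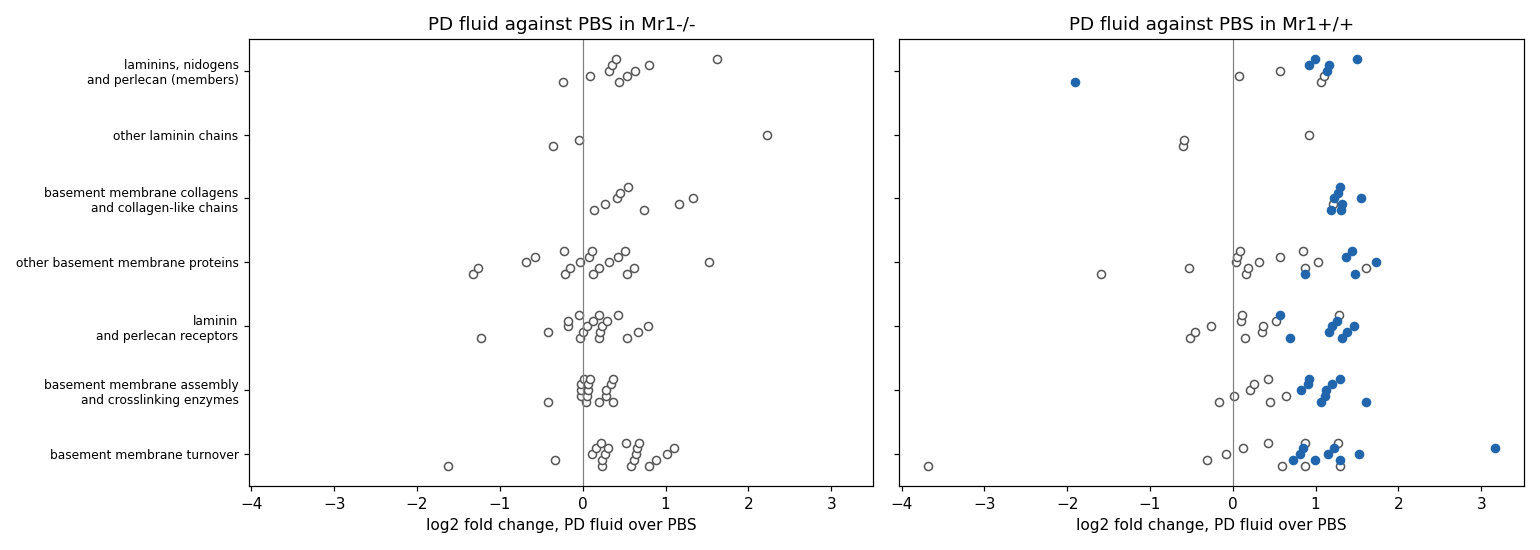
Fitted log2 fold changes of PD fluid over PBS for the members and 6 lists of related genes, in Mr1-/- (left) and Mr1+/+ (right), with 1 point per gene and filled points for an adjusted p under 0.05. Collagen chains form a tight group with a median of 1.28 in Mr1+/+, while the filled point below 0 is Lamb3, and no point is filled in Mr1-/-.

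Each member's pattern over the 8 samples was compared with those of 11539 genes of at least 5 CPM in mean, by the root mean square difference of centred log2 CPM. Lama4 and Nid1 were each other's nearest gene (difference 0.10). The gene nearest to Lamb1 was Sparc (0.11), that nearest to Nid2 was Col4a6 (0.17), and that nearest to Lama2 was Slit3, a secreted guidance cue (0.21). Lamc1 was nearest to Zfp423, a zinc finger factor of fat cell precursors (0.06), and Lamb2 to Dennd2a (0.06). Hspg2 was nearest to Nhsl2 (0.11), Lama5 to Pcnx (0.09) and Lamb3 to Slc16a5 (0.17). The second nearest were Entpd2 for both Lama4 and Nid1, Aifm2 for Lamb1, Cdc42ep1 for Nid2, Fndc1 for Lama2, Amotl1 for Lamc1, Palm for Lamb2, Plekhg1 for Hspg2, Tcp11l1 for Lama5 and Slc35g1 for Lamb3. The nearest member to Lamb3 was Lama5, at 0.79 and rank 5764 among these genes. That nearest to Lama5 was Hspg2, at 0.34 and rank 5560, so neither Lamb3 nor Lama5 had another member among its closest genes. The Lamb3 pattern includes its highest value, in Mr1+/+ PBS replicate 3.

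Markers of some other cell types, namely adipocytes, endothelium and fibroblasts, moved with the rises. The 19 adipocyte markers summed to 12300 CPM in Mr1-/- PD fluid, against 9831 and 14400 CPM in Mr1-/- PBS, and to 21480 to 30770 CPM in Mr1+/+ PD fluid, against 7398 and 9217 CPM in Mr1+/+ PBS. In Mr1+/+ PD fluid 16 of these 19 were called higher, beside 8.49% of all tested genes, and none without Mr1+/+ PD fluid replicate 3. The 16 endothelial markers summed to 1743 CPM in Mr1-/- PD fluid, against 1423 and 1667 CPM in Mr1-/- PBS, and to 2427 to 3161 CPM in Mr1+/+ PD fluid, against 1528 and 1713 CPM in Mr1+/+ PBS, with 11 of 16 called higher in Mr1+/+. Fibroblast markers summed to 2180 CPM in Mr1-/- PD fluid, against 1179 and 1541 CPM in Mr1-/- PBS. They reached 2827 to 3033 CPM in Mr1+/+ PD fluid, against 1220 and 1343 CPM in Mr1+/+ PBS, and 9 of 12 were called higher in Mr1+/+. Of 12 pericyte and smooth muscle markers only 1 was called higher in Mr1+/+. Their log2 fold changes were positive in 7 and negative in 5, with a median of 0.10. Of 10 Schwann cell markers 1 was called higher, with 7 positive and 3 negative log2 fold changes and a median of 0.74.

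With the mean adipocyte or the mean endothelial marker level as a covariate, no member was called in Mr1+/+, and the median log2 fold change of the members was -0.38 or -0.31. These marker levels did not overlap between Mr1+/+ PD fluid and the other samples, so in this design they and the treatment cannot be told apart. Mesothelial markers summed to 701 CPM in Mr1-/- PD fluid, against 441 and 559 CPM in Mr1-/- PBS, and to 454 to 782 CPM in Mr1+/+ PD fluid, against 660.0 and 1583 CPM in Mr1+/+ PBS. The 1583 CPM belonged to Mr1+/+ PBS replicate 3, the library with intestinal epithelial markers. Of these 13 markers, none was called higher and 1 (Ezr) lower in Mr1+/+. Their log2 fold changes were positive in 8 and negative in 5, with a median of 0.72, so the sum and the single markers differed in direction.

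Other marker lists were lower or higher in Mr1+/+ PD fluid as well. Over all tested genes, 8.49% were called higher and 6.37% lower in Mr1+/+. Skeletal muscle markers summed to 64.7 CPM in Mr1-/- PD fluid, against 71.7 and 73.5 CPM in Mr1-/- PBS, and to 34.3 to 52.7 CPM in Mr1+/+ PD fluid, against 55.9 and 66.3 CPM in Mr1+/+ PBS. All Mr1+/+ PD fluid samples lay below all others in that sum. Their mean log2 CPM overlapped, with Mr1+/+ PD fluid replicate 1 at 1.35 and Mr1+/+ PBS replicate 3 at 1.33. Of the skeletal muscle markers tested, 3 had positive and 8 negative log2 fold changes in Mr1+/+. None of the 11 skeletal muscle markers tested was called, Myh4 had 0 counts in every library, and with their mean level as a covariate no member was called higher and Lamb3 was called lower. B cell markers summed to 2549 CPM in Mr1-/- PD fluid, against 2456 and 2331 CPM in Mr1-/- PBS, and to 1188 to 1322 CPM in Mr1+/+ PD fluid, against 3336 and 2113 CPM in Mr1+/+ PBS, with 9 of 9 called lower in Mr1+/+. Erythroid markers summed to 51.7 CPM in Mr1-/- PD fluid, against 14.1 and 20.2 CPM in Mr1-/- PBS, and to 84.6 to 239.6 CPM in Mr1+/+ PD fluid, against 17.9 and 35.6 CPM in Mr1+/+ PBS, with 3 of 5 tested called higher in Mr1+/+. The part of these cells in the members' differences was not tested.

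**Figure D5:**
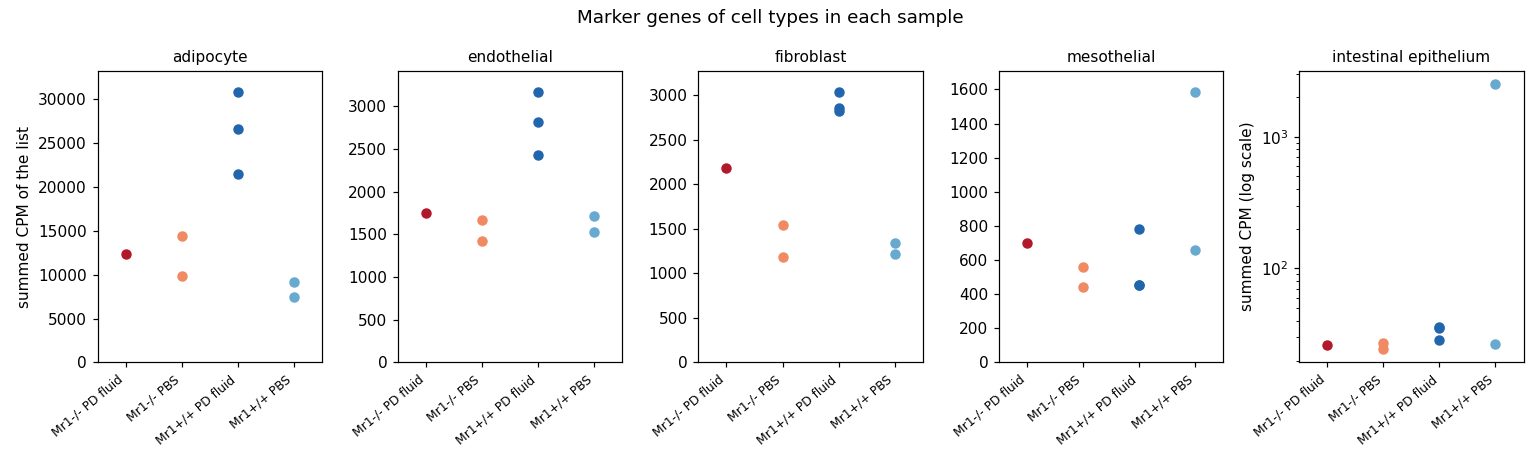
Summed CPM of the marker lists in each sample by group, on linear axes from 0, except for intestinal epithelium, which is on a log axis. Adipocyte, endothelial and fibroblast sums are highest in the 3 Mr1+/+ PD fluid samples, and the intestinal sum of 2512 CPM belongs to Mr1+/+ PBS replicate 3.

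Some member counts could hold reads of neighbours, since no strand-marking step is named for these libraries. Exons of Nid2 (mm10 chr14:19751265-19811787, plus strand) share 437 bases with Rtraf on the opposite strand, a gene with 1037 to 1615 counts per library. Lama2 (chr10:26980036-27619758, minus strand) shares 631 exon bases with an antisense gene, and Nid1 (chr13:13437551-13512269, plus strand) shares 143. Lamb3 (chr1:193207699-193343878, plus strand) spans Hsd11b1 and G0s2 on the opposite strand but shares no exon base with them. Lamb1 (chr12:31265234-31329644), Lama4 (chr10:38965515-39110188), Lamb2 (chr9:108479736-108490530) and Lamc1 (chr1:153218922-153332786) share no exon base with another gene of the annotation. The overlap of Nid2 with Rtraf was not tested as a part of its values.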

How the data were processed

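Poly-A RNA of mouse peritoneum was reverse-transcribed with random primers, per the labels' protocols, which name neither strand marking nor molecular identifiers. The deposited values are raw read counts for each gene symbol, whole numbers that the authors did not normalize. Reads were placed on mm10, per the submitters' processing notes, and the aligner, the counter and the gene models were not given in the sources used here. After rows with the same symbol were added up, 21877 symbols remained of 21899 rows, and 97.0% of them matched GENCODE M21, which supplied coordinates and exon lengths.

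Pairs of libraries within a group with a chi-square per gene under 5 (over genes with at least 10 summed counts) were summed. Genes were kept with filterByExpr by group (15385 genes), scaled by TMM and tested with edgeR 4.0.16 in R 4.3.3 using quasi-likelihood F tests (robust) over 4 group means, with 4 residual degrees of freedom. Benjamini-Hochberg adjustment ran over all tested genes, and an adjusted p under 0.05 was a call. A standard error is the absolute log2 fold change divided by the root of F. The script was tested on simulated data with known changes. DESeq2 1.42.0 and the other settings of the closing section were alternatives. The libraries held 14145635 to 16335799 counts, every member had 114 counts or more in each, and precision is set by the 1 to 3 samples of a group. Promoters come from RefSeq (GRCm38.p6).

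The members and all gene lists were chosen with earlier results of these data known. All members are named. Of each list, the called genes with the largest absolute change in Mr1+/+ are named, 4 for the collagens and 2 for the others. A few genes of the lists are not reported here.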

Additional observations from a re-analysis of the deposited data

How the results depend on the processing

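Members called in Mr1+/+ PD fluid against PBS numbered 5 higher and 1 lower, 7 and 1 with DESeq2, and 8 and 1 with all 10 libraries as separate samples (19.2% and 18.3% of all genes), which understates the spread if a near-identical pair is 1 sample. They were 0 and 0 with the adipocyte covariate (0.0195% and 0.429% of all genes), 0 and 0 with the endothelial covariate (0.0195% and 0.682%), and 0 and 1 with the skeletal muscle covariate (0.871% and 0.962%). Leaving out libraries gave 0 to 7 higher and 0 to 1 lower. Under PD fluid, Mr1-/- against Mr1+/+ called 4 members lower with the 10 libraries (11.1% of all genes) and 2 with DESeq2 (3.85%). The interaction called 1 member higher and 1 lower with the 10 libraries (4.36% and 5.7% of all genes), 1 higher with DESeq2 (1.11%), and 0 to 1 higher with libraries left out. Under PBS, Mr1-/- against Mr1+/+ called 0 to 1 lower with libraries left out. Deviations of same-numbered libraries from their group means correlated at 0.09, -0.08 and 0.07 in Mr1+/+. The values were 0.02 in Mr1-/- and -0.13 to 0.15 between genotypes. In groups of 2 libraries the deviations mirror each other, and some groups hold a near-identical pair. These values therefore cannot show whether the numbers of the labels pair the samples. With the replicate block on the 10 libraries, 7 members were called higher and 1 lower in Mr1+/+ (19.1% and 18.3% of all genes), 2 lower under PD fluid between genotypes (7.34%), and 1 higher and 1 lower in the interaction (6.39% and 6.54%).

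Directions turned under the covariates, and the cause was not tested. With the adipocyte covariate, the Mr1+/+ log2 fold changes were -0.38 for the member median, -0.14 for Col15a1, -0.17 for Col4a1, -0.36 for Col4a5, -0.21 for Hspg2, -0.58 for Itga7, -0.88 for Lama2, -0.51 for Lama4, -0.25 for Lama5, -0.56 for Lamb1, -0.045 for Mmp9, -0.53 for Nid1, -0.52 for Sparc and -0.58 for Timp1. Between genotypes under PD fluid they were 0.19 for the median, 0.30 for Lama4 and 0.22 for Lamb1, and in the interaction 0.76 for the median, 0.91 for Lamb1 and 0.030 for Lamb2. With the endothelial covariate, the Mr1+/+ values were -0.31 for the median, -0.42 for Hspg2, -0.10 for Itga7, -0.47 for Lama2, -0.30 for Lama4, -0.57 for Lama5, -0.15 for Lamb1, -0.32 for Nid1 and -0.021 for Sparc. Lamb3 was at -0.068 in Mr1-/- there. Between genotypes under PD fluid the median was 0.28, Lama4 0.32 and Lamb1 0.11, and in the interaction the median was 0.55 and Lamb1 0.35. With the skeletal muscle covariate Lama5 was at -0.0026 in Mr1+/+. With libraries left out, Lama5 ranged over -0.17 to 0.20 in Mr1+/+, Lamb3 over -0.10 to 0.29 in Mr1-/-, and the member median under PBS over -0.40 to 0.022.

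With the longest transcript as length, Lama2 stood at 4.91 and Lama4 at 23.9 CPM per kb, and Lamb1 (27.0) came just above Lamb2 (26.9). DESeq2's size factors within edgeR gave the 5 and 1 calls again (8.59% and 6.66% of all genes). No filter on low counts (7.38% and 5.5%) or a fit of the compared groups alone (10% and 7.41%) gave 7 and 1. The interaction could not be fitted with fewer groups, and the lone Mr1-/- PD fluid sample could not be left out as a whole. Every member had at least 114 counts per library, and the groups of 1 to 3 samples limit the comparisons.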

Other observations

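Lamc3, a gamma chain outside the member list that was singled out after its values were seen, had 30.9 CPM in Mr1-/- PD fluid, against 9.86 and 3.38 CPM in Mr1-/- PBS. In Mr1+/+ PD fluid it had 21.2, 14.1 and 10.1 CPM, against 8.43 and 7.51 CPM in Mr1+/+ PBS. The PD fluid samples were above the PBS samples in both genotypes, and no comparison called the gene. Lama1 was low throughout, at 0.99 to 2.95 CPM. Alb, a liver transcript, had 107 CPM in Mr1-/- PD fluid and 105 and 64.1 CPM in Mr1-/- PBS, and at most 2.17 CPM in the Mr1+/+ samples. Pnlip, a pancreatic acinar transcript, had 5021 CPM in Mr1+/+ PBS replicate 3 and 29.7 to 940.0 CPM in the other samples.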
